A study of Mus musculus with 18 samples.

Results

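The Ly6 genes followed here were *Ly6a*, *Ly6e*, *Ly6c1*, *Ly6c2*, *Ly6d* and *Ly6k*, which are 6 of the 20275 genes in the deposited matrix of UMI (unique molecular identifier) counts. They were chosen by name and not by their values, and all 6 were measured. Their transcripts were counted in every cluster of BM hematopoietic progenitors (HPs) and BM stroma, and the transcript of *Ly6a* was set beside the Ly6AE antibody counted in the same cells.

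Ly6 proteins are small, cysteine-rich members of the Ly6/uPAR family, and most are tied to the outer face of the plasma membrane by a GPI anchor. *Ly6a* encodes Sca-1, the antigen that, with Kit, defines the LSK gate for mouse hematopoietic stem and progenitor cells (HSPCs), and Sca-1 is also used to isolate PDGFRα+ Sca-1+ (PαS) mesenchymal cells and arterial endothelium. The Ly6AE antibody (clone D7) recognizes the allelic products of *Ly6a*, which are called Ly-6A and Ly-6E, whereas the gene *Ly6e* encodes another protein, Sca-2 or TSA-1. *Ly6c1* and *Ly6c2* encode the Ly6C antigens of endothelium and of monocytes and granulocytes. *Ly6d* marks lymphoid progenitors committed to the B lineage, and *Ly6k* is best known from testis. *Ly6a* and *Ly6e* are also known to respond to interferon.

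All 6 genes lie within 350 kb of chromosome 15 (GRCm38, GENCODE vM21 annotation). *Ly6d* spans 74762056 to 74763620, *Ly6k* 74796874 to 74799986, *Ly6a* 74994877 to 74998031, *Ly6c1* 75044018 to 75048830 and *Ly6c2* 75108158 to 75111970, each on the minus strand. *Ly6e* spans 74955051 to 74959905 on the plus strand. The transcripts of *Ly6c1* and *Ly6c2* were identical at 802 of 822 aligned bases (97.6%), whereas that of *Ly6a* was 84.6% identical to *Ly6c1* and 83.6% to *Ly6c2*, and every other pair lay between 57.3% and 63.2%. Of the 451 windows of 50 bases in the last 500 bases of the *Ly6c1* transcript, 90 also occurred in *Ly6c2*, so 3′ reads from such windows could not be assigned to either gene, and the counts of both carry that uncertainty.

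RefSeq promoter windows were at hand for 2 of the 6 members, and they are shown because these near-identical transcripts led in different compartments from E18.5 on, *Ly6c1* in stroma (6.59 to 451 CPM, against at most 0.253 in HPs) and *Ly6c2* in HPs. Each window runs 5′ to 3′ on the minus strand of GRCm38.p6, from 250 bases before to 50 bases after the annotated start, at chr15:75048788-75049087 for *Ly6c1* and chr15:75111922-75112221 for *Ly6c2*. Capitals mark the bases that differ from the other window or have no partner in it, 92 in each.
Ly6c1: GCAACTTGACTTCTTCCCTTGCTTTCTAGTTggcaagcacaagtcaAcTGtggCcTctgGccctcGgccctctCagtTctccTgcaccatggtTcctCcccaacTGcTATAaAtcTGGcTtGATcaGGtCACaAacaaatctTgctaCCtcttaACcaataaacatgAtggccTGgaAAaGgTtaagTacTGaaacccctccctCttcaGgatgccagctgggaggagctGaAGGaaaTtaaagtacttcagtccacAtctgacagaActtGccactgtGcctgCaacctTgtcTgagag
Ly6c2: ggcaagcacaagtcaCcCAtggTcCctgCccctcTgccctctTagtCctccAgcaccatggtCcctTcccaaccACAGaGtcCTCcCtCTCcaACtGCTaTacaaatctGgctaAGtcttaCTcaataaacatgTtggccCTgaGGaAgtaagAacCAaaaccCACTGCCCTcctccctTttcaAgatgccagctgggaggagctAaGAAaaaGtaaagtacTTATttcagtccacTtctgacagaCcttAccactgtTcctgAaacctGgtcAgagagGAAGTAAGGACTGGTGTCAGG
The windows were identical at 208 of 266 aligned bases (78.2%), which is less than their transcripts. The letters GAGGAAGT, a PU.1-type ETS site searched on both strands, occurred at bases 143 and 277 of the *Ly6c2* window and not in the *Ly6c1* window, and 3.20% of 32851 windows of this length held them. At base 143 the aligned *Ly6c1* letters differ. The match at base 277 lies after the annotated start, and the aligned *Ly6c1* window ends within it. Whether *Ly6c1* has the same letters there cannot be read from this window. A second annotated *Ly6c1* window, which is not shown, held them once. Neither window held TTCNNNGAA (a GAS site, in 8.30% of windows) or the core of an interferon-stimulated response element (in 3.44%). These matches describe letters and were not tested as sites.

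Single-cell transcripts and antibody tags (CITE-Seq) were read by the study from untreated C57B6/J mice before birth (E16.5 and E18.5), at birth (P0) and from adults, whose age the study gives only as a range of weeks for all its cell collections. HPs were sorted as lineage-negative Kit+ cells and stroma as CD45-negative Ter119-negative cells, so neither sort used Sca-1, and each library came from a pool of mice. The study took adult cells from tibias, femurs, pelvic bones and spines and lysed red cells. Fetal cells came from the skeleton without the bones of the head, and the lysis step was left out. In comparisons of adult with fetal cells, stage cannot be told apart from the bones taken and their preparation. The study describes its lineage-negative fraction as low in B220 and Gr-1, among others, so the HP sort was not neutral for B cells and granulocytes. What this brings to the levels of *Ly6d* and *Ly6c2* was not tested. E16.5 HPs were in 2 libraries and every other stage and compartment in 1, which makes 5 HP and 4 stromal libraries of 56201 cells. The median cell held 6747 (adult HP) to 23291.5 UMIs (the first E16.5 HP library). Levels are UMIs per 1000000 UMIs (CPM) of the summed counts of a library, class or cluster, with exact Poisson 95% intervals in parentheses. These cover counting error only, and differences in level between stages have no replicate check. Clusters carry the authors' codes. Codes of stroma that begin with F, C or P are given as such, since the deposited table does not expand them, and clusters of under 20 cells were left out, which kept 147 library-clusters.

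Some HP libraries shared cell barcodes far more often than stromal libraries did. The first E16.5 HP library shared 330 of its 560 barcodes (58.9%) with adult HPs and 153 (27.3%) with P0 HPs, and 375 barcodes were shared by E18.5 and adult HPs, whereas the 2 E16.5 HP libraries shared 1. In 912 cells the barcode also occurred in another library with at least 10 times the UMIs, and 641 of these were adult HPs. They made up 185 of 201 cells of adult Mast4i, 78 of 120 of adult Mast4ii, 332 of 701 of adult MyP4 and 152 of 274 of P0 Mast4, and none of the E16.5 HP cells. For adult and P0 mast sums, fitted changes or adjusted p of *Ly6e*, *Ly6a* (P0 only) and *Ly6c2* are therefore given with and without these cells. The CPM values of mast clusters and sums include these cells. The *Ly6a* ratios between stromal and Mono/DC classes below were the same without them. The marker check also set some codes apart from their names. E16.5 HSPC1 held summed dendritic cell (DC) markers of 10425 and 3398 CPM and mast cell markers of 3708 and 4460 CPM in the first and second library, against 415 and 368 CPM of HSPC markers. At later stages HSPC markers summed to 927 CPM (E18.5), 496 to 1043 CPM (P0) and 901 CPM (adult), and DC markers to 185 CPM or less. P0 Mast4 had fibroblast and then chondrocyte markers as its first lists, with 1001 CPM of fibroblast markers against 1.79 CPM in P0 Mast3, beside 20246 CPM of mast markers. Adult Mast4ii had monocyte markers first and mast markers next, and both clusters enter the mast sums. What these cells bring to the values of the clusters was not tested.

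Across whole libraries, *Ly6a* and *Ly6c1* were highest in adult stroma and *Ly6c2*, *Ly6d* and *Ly6e* in HPs. *Ly6a* was at 9.02 and 15.3 CPM in the E16.5 HP libraries, 23.2 (E18.5), 20.8 (P0) and 6.01 CPM (adult) in the others. In stroma it was at 5.16 CPM at E16.5, between 19.2 and 20.8 CPM at E18.5 (95% interval), and at 38.3 (P0) and 621 CPM (adult), so that adult stroma stood apart from the other 8 libraries. *Ly6c1* had the same order in stroma, at 2.50, 6.59, 15.8 and 451 CPM, and lay between 0.0925 and 2.31 CPM in HPs. *Ly6c2* went the other way between compartments. It was at 2.29 and 10.6 (E16.5), 35.2 (E18.5), 68.3 (P0) and 484 CPM (adult) in HPs and at 0.207 CPM or less in stroma. *Ly6d* was at 5.22 and 53.8 CPM in the E16.5 HP libraries, 13.0 (E18.5), 11.8 (P0) and 77.2 CPM (adult) in the others, and at 0.118 CPM or less in stroma. The E16.5 pair thus differed by more than E18.5 and P0 did. These 2 libraries also held unlike cells. TCell1 to TCell4 were 11.3%, 10.2%, 10.1% and 6.23% of cells in the second, whereas the first held 1 TCell2 cell, 4 TCell3 cells and no TCell1 or TCell4. What this brings to the levels of the pair was not tested. *Ly6e* was at 300 and 653 (E16.5), 520, 470 and 412 CPM in HPs and at 33.8, 35.3, 50.8 and 191 CPM in stroma. *Ly6k* stayed below 1 CPM except in the second E16.5 HP library (5.96 CPM). These 3′ counts were not corrected for length, so levels were compared between cells and not between genes.

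**Figure D1:**
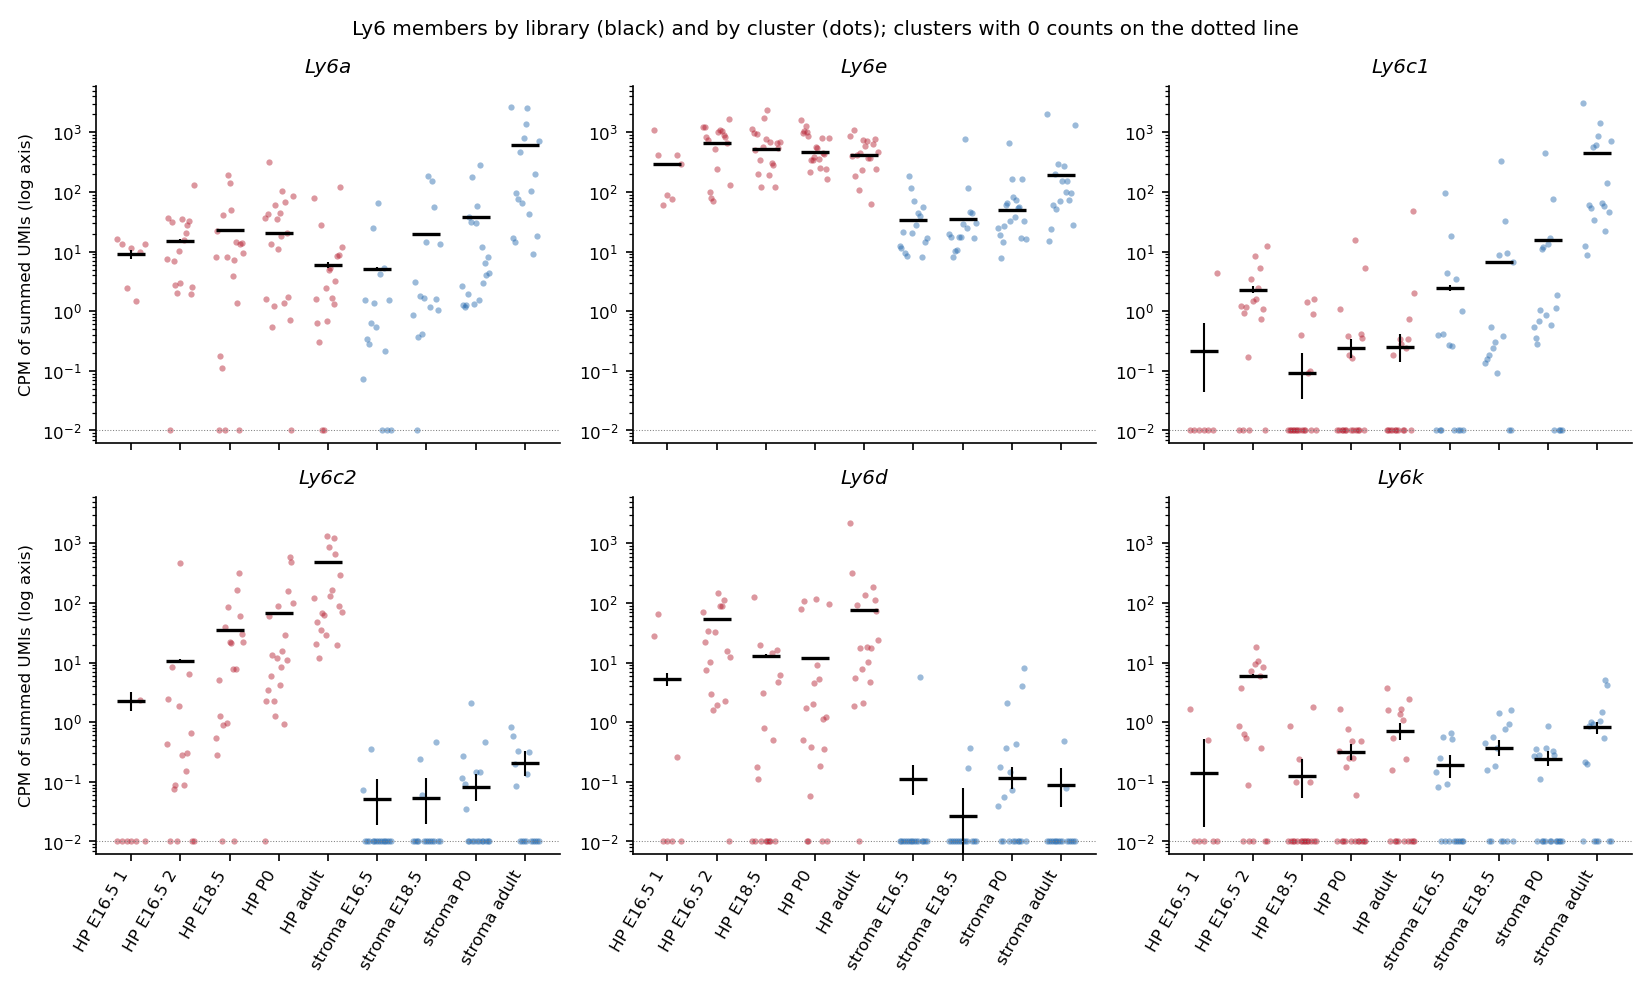
CPM of the 6 members on a log axis in the 5 HP libraries (red) and the 4 stromal libraries (blue). Black bars are whole libraries with exact Poisson 95% intervals, dots are clusters of at least 20 cells, and clusters with 0 counts lie on the dotted line. *Ly6a* and *Ly6c1* reach their top in adult stroma (621 and 451 CPM), *Ly6c2* in adult HPs (484 CPM).

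In stroma, Sca-1 transcript was highest in endothelium and in some F clusters, and in both classes it was higher in the adult than at any earlier stage. The endothelial cluster held 25.3 CPM of *Ly6a* at E16.5 (15.8 to 38.3), and 184 (158 to 213) then 179 CPM (162 to 196) in the E18.5 and P0 libraries. The adult endothelial classes, AECs and SECs, held 2661 (2596 to 2727) and 715 (677 to 755) CPM. Taken as 1 class, adult endothelium was at 71.8 (47.4 to 115) times the E16.5 level (28.3 without AECs) and 10.2 (9.23 to 11.2) times the P0 level, while E18.5 and P0 did not differ beyond their intervals. All endothelial clusters had endothelial markers as their first marker list. The F class held 15.2 (E16.5), 79.3 (E18.5), 115 (P0) and 1018 CPM (adult), and the last is 66.9 (61.4 to 72.9) times the E16.5 level, or 20.4 times without F8. Different clusters led it at each stage, and those that led had PαS markers as their first list, although not every F cluster with that list was high. These were F3 at E16.5 (66.0 CPM), F3i at E18.5 (154), F7 at P0 (284) and F8 in the adult (2543). Within P0 the F class was uneven, with 284 CPM in F7, 58.8 CPM in F3ii, 27.2 to 33.0 CPM in F3i (95% interval) and 1.32 and 1.55 CPM in F2 and F5. F3i at P0 and F1 at E16.5 (1.36 CPM) also had PαS markers first, and adult F10, with fibroblast markers first, held 478 CPM.

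In the C clusters, of which adult C9 had osteolineage and chondrocyte markers first, *Ly6a* was at 0.574 (E16.5), 1.10 (E18.5), 1.81 (P0) and 47.7 CPM (adult). P clusters held 0.0658 (1 count), 1.45, 4.99 and 134 CPM. The class holds unlike cells at these stages. The E16.5 P clusters, P1i and P-2, had muscle markers first, and F4, with pericyte markers first at E16.5 (4.19 CPM), was counted in the F class. Of the adult P clusters, P4, with erythroid and pericyte markers, held 199 (179 to 222) CPM and P1, with muscle markers, 9.00 (3.62 to 18.6). No adult stromal cluster was below 9.00 CPM of *Ly6a*, whereas at E16.5 the median cluster was at 0.585 CPM and 3 of 16 were at 0. Adult P1, C11 and C10 were the lowest, at 9.00, 14.7 and 17.2 CPM in a library at 621 CPM, and after thinning 0.820% to 3.65% of their cells kept a *Ly6a* UMI. These levels were not read as expression, and how far a like background enters the adult C and P classes was not tested. CARs, the adult cells with CXCL12-abundant reticular markers, held 77.3 (67.7 to 87.9) CPM, and the osteolineage cluster 103 (94.5 to 111). Thinned to 1000 UMIs per cell, 80.4% (78.0 to 82.7) of F8 cells and 82.8% (78.6 to 86.4) of AECs kept a *Ly6a* UMI, against 96.4% and 95.5% without thinning. At P0, 14.4% of thinned F7 cells did, and 33.1% without thinning.

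**Figure D2:**
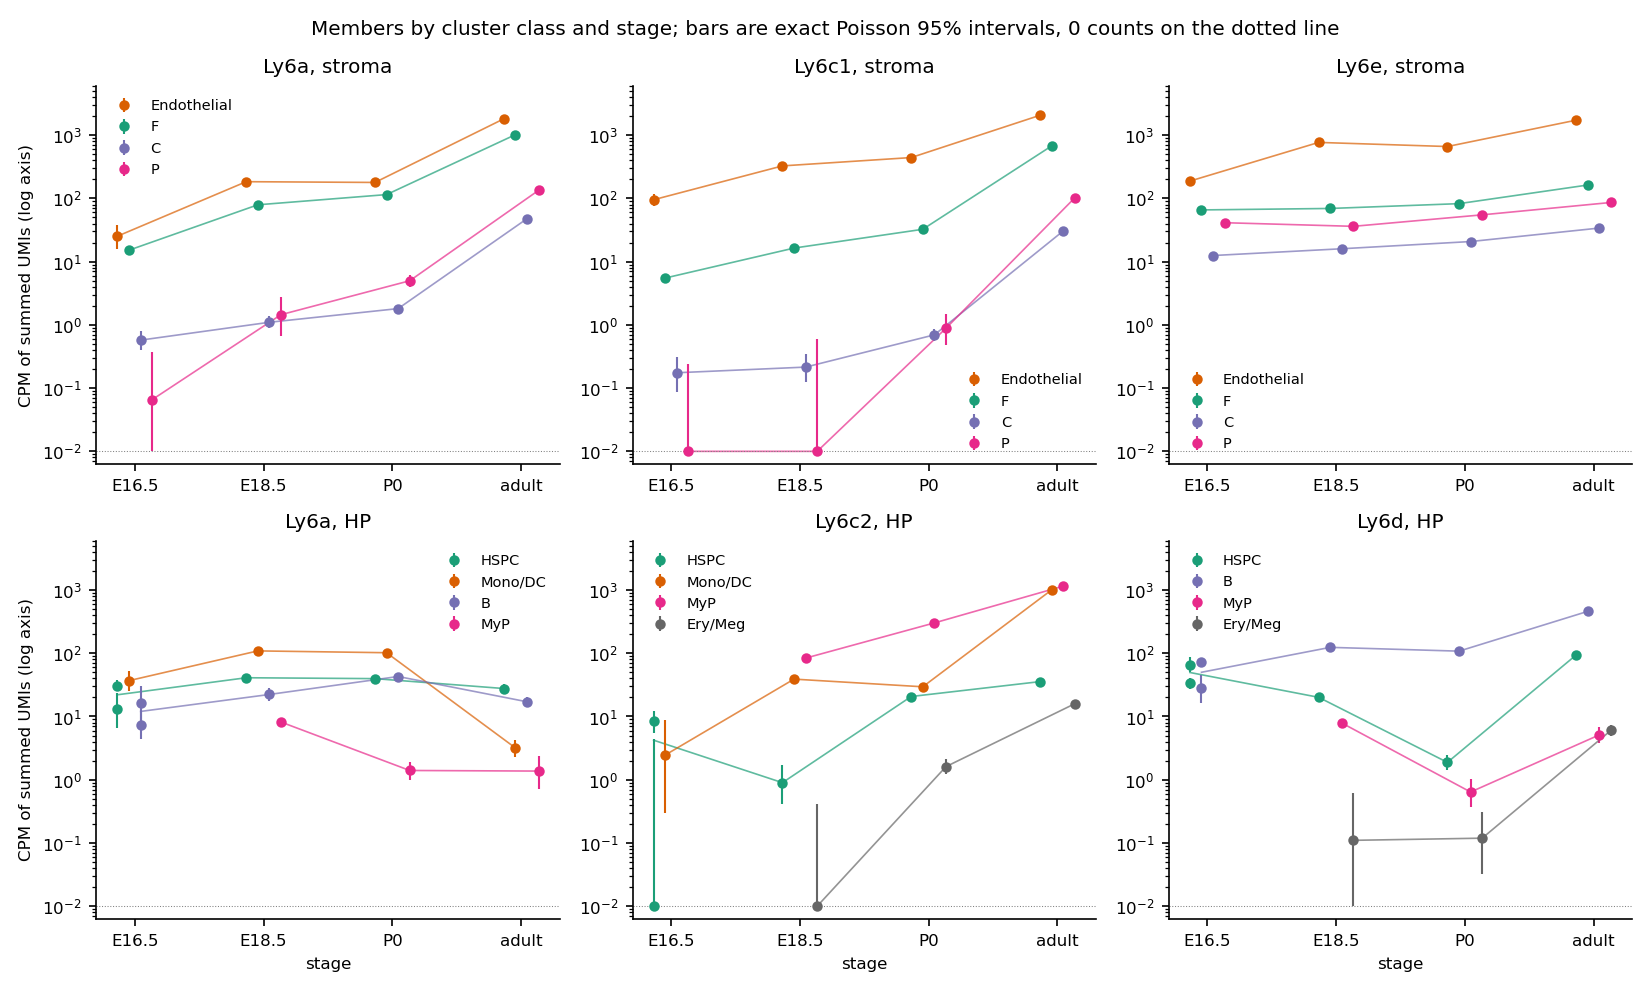
CPM on a log axis by cluster class and stage for *Ly6a*, *Ly6c1* and *Ly6e* in stroma (top) and *Ly6a*, *Ly6c2* and *Ly6d* in HPs (bottom), for classes of at least 20 cells. Points are libraries with exact Poisson 95% intervals, and lines join stage means (2 libraries at E16.5 in HPs). Every stromal class shown was highest in the adult for *Ly6a* and *Ly6c1*, while *Ly6a* in Mono/DC clusters of HPs was lowest there (3.19 CPM).

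Among HPs, the highest *Ly6a* was not in HSPC clusters but in some DC and monocyte clusters around birth. Other Mono/DC clusters were below HSPC2 of their stage (41.0 CPM at E18.5, 60.9 at P0). These were DC2 (0 counts), Mono1iv (3.93 CPM) and Mono2 (7.12) of E18.5, and Mono2 (20.2) of P0. P0 DC3, with DC markers first, held 321 (289 to 356) CPM, and E18.5 Mono1i and Mono1ii, with DC and monocyte markers, held 195 (178 to 214) and 141 (124 to 160) CPM. Mono/DC clusters were at 109 CPM at E18.5 and 102 CPM at P0, which did not differ beyond counting error (ratio 0.935, 0.841 to 1.04), and at 3.19 CPM in the adult. The adult level was 0.0314 (0.0226 to 0.0426) times the P0 level. The clusters behind it differ, since P0 Mono/DC held Mono1, Mono2 and DC3, and the adult Mono4, Mono5 and Mono6. First marker lists were monocyte, HSPC and DC in these P0 clusters, and neutrophil in Mono4 and Mono5 and DC in Mono6, so that the classes hold unlike cells at P0 and in the adult. Mono6 held 5.34 (1.73 to 12.5) CPM. HSPC1 of E16.5 held 13.2 and 30.9 CPM and HSPC2 of E18.5 held 41.0. The P0 clusters HSPC2, HSPC3 and HSPC4 held 60.9, 34.9 and 10.9 CPM, and adult HSPC5 27.7. The spread among the 3 P0 clusters was therefore wider than that between stages. Erythroid and megakaryocyte clusters taken as a class, a lineage outside the LSK gate, held 0.110 to 1.31 CPM from E18.5 to adult, and the P0 and adult clusters of that class 0.310 (EryP2) to 2.50 CPM (MegP2). Thinned to 1000 UMIs, 2.43% to 7.37% of cells of a HSPC cluster kept a *Ly6a* UMI, against 15.2% to 44.6% unthinned at median depths that differed between libraries. B-lineage clusters held 16.6 and 7.45 (E16.5), 22.3, 42.9 and 17.1 CPM, and P0 T/NK cells (TCell5) 86.1 (66.3 to 110). Of the adult B clusters, Bcell3 held 79.4 CPM (64 counts) and the others 1.59 (Bcell4) to 8.81 CPM (Pre/Pro-B2).

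Cells with more Ly6AE antibody held more *Ly6a* transcript within most clusters that could be compared, and over clusters both measures were related to a degree that differed between libraries. For this, antibody counts were put on a centered log-ratio (CLR) scale over all cells of a library. Over clusters, Spearman's rho between mean CLR and *Ly6a* CPM was 0.21 (7 clusters) and 0.48 (17) in the E16.5 HP libraries, and 0.62 (19), 0.62 (20) and 0.66 (18) in the E18.5, P0 and adult ones. In stroma it was 0.73 (16), 0.77 (15), 0.54 (19) and 0.82 (16). With the share of all antibody counts in place of the CLR, rho turned to -0.25 in the first E16.5 HP library and -0.10 in E16.5 stroma. These describe clusters that share a library, its depth and its free tags, and carry no p. Other members gave higher values than *Ly6a* in some libraries. In the first E16.5 HP library rho was 0.71 with *Ly6e*, 0.61 with *Ly6c2* and 0.75 with *Ly6d*, in the second 0.52 with *Ly6c1*, 0.73 with *Ly6d* and 0.72 with *Ly6k*, and in P0 stroma 0.76 with *Ly6c1*. By mean CLR, the leading HP cluster was HSPC2 (1.53) of E18.5, DC3 (2.28) of P0 and HSPC5 (1.69) of the adult, and F3 (1.33), F3ii (1.66), F7 (1.39) and F13 (1.56) in stroma from E16.5 to adult. Protein and transcript were not ordered alike throughout. HSPC2 had the highest mean CLR of E18.5 HPs at 41.0 CPM of *Ly6a*, while Mono1i held 195 (178 to 214) CPM. HSPC5 had the highest mean CLR of adult HPs at 27.7 CPM, while adult Bcell3 held 79.4 (61.2 to 101) CPM. By share of cells this adult order was not kept. Thinned, 5.48% (3.23 to 8.64) of Bcell3 and 4.00% (2.61 to 5.85) of HSPC5 cells kept a *Ly6a* UMI, against 10.7% and 16.9% unthinned.

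**Figure D3:**
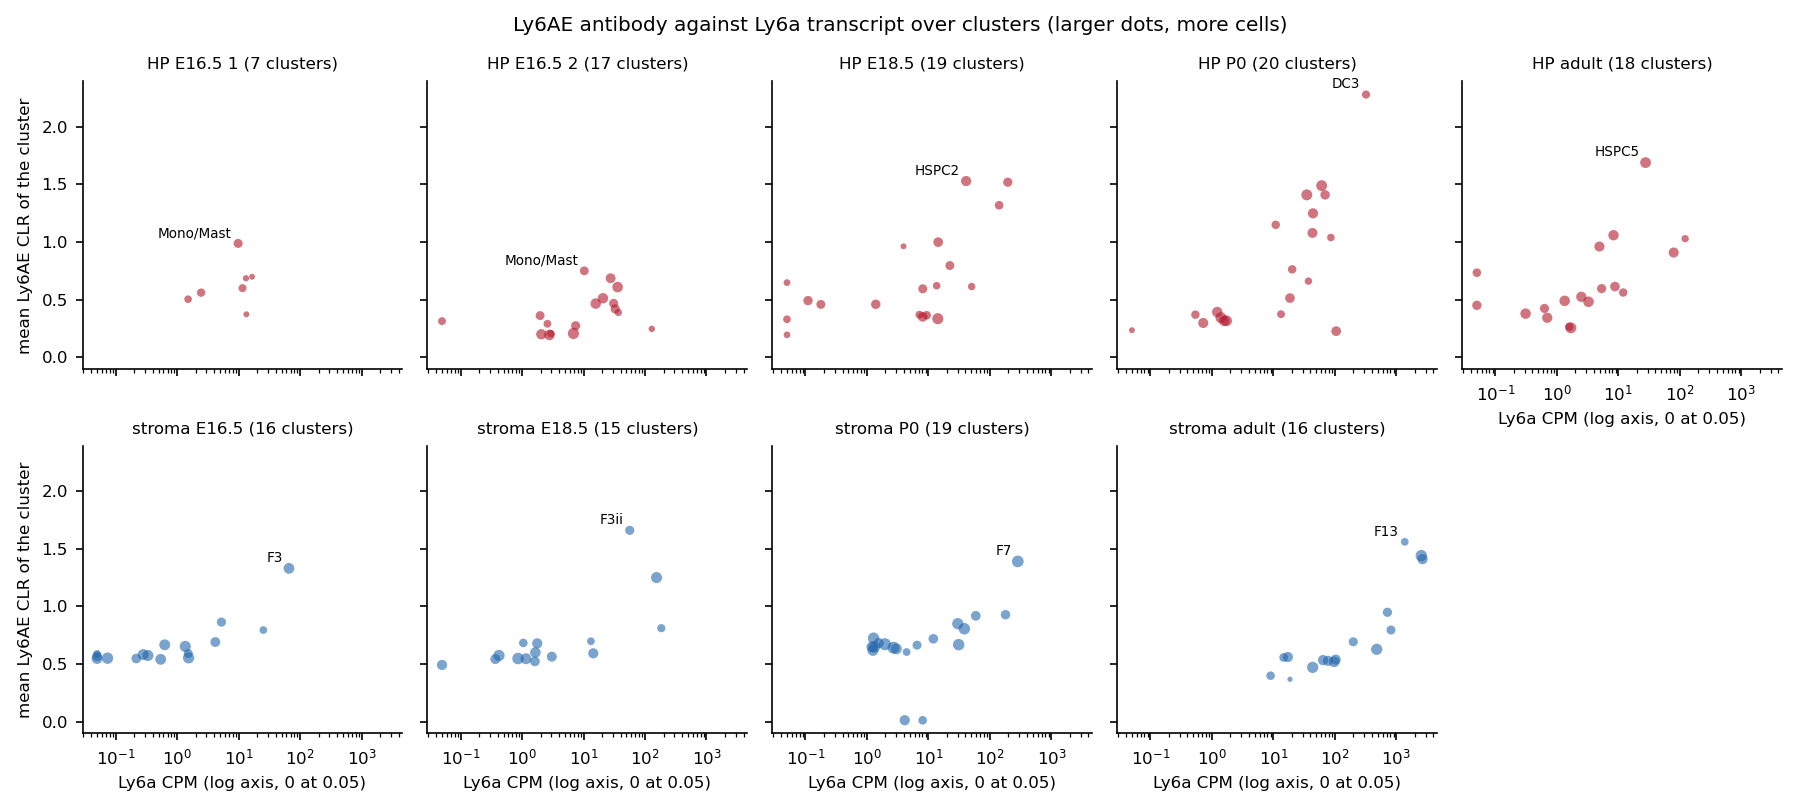
Mean Ly6AE CLR (vertical axis) against *Ly6a* CPM (horizontal log axis, 0 counts at 0.05) over the clusters of at least 20 cells of each library, HP in red and stroma in blue, with dot size by number of cells. The cluster with the highest mean CLR is named in each panel, such as DC3 in P0 HPs (2.28).

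Cells above a CLR of 1 were compared with the rest. They made up 9.90% to 23.7% of the cells of a library. In HPs, *Ly6a* was at 26.7 and 44.8 CPM in cells above of the E16.5 libraries and at 96.6, 93.0 and 24.0 CPM in those of later stages, and in cells not above at 4.26, 10.2, 3.54, 3.02 and 1.54 CPM. Median depth differed most between both sides in E18.5 HPs, at 21337 UMIs above and 8577 not above, and its part was not tested. In stroma, cells above held 42.6, 158, 284 and 2015 CPM from E16.5 to adult, and cells not above 0.576, 2.32, 5.69 and 285 CPM. The ratio was 4.39 in the second E16.5 HP library, where 47.7% of cells had no Ly6AE count and the median was 1 count, and 74.0 in E16.5 stroma, and its median over the 9 libraries was 27.3. The ratio depended on the level chosen, as E16.5 stroma gave 15.1 at a CLR of 0.5 and 153 at 1.5, and the median was 13.8 and 25.9. In adult stroma it was 7.07, and there both sides of the level were high in the leading clusters, with 3037 CPM above and 1850 CPM not above in F8 and 2927 and 2256 CPM in AECs. Within clusters, 55 could be compared (at least 20 cells each side and 20 *Ly6a* counts). *Ly6a* was higher above in 52, with intervals apart in 48, and in none were they apart the other way. P0 F7 held 708 CPM above and 20.6 not above, and E18.5 F3i 416 and 10.0. HSPC clusters showed the same order, with 122 and 7.04 CPM in P0 HSPC2 and 47.0 and 2.93 CPM in adult HSPC5.

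**Figure D4:**
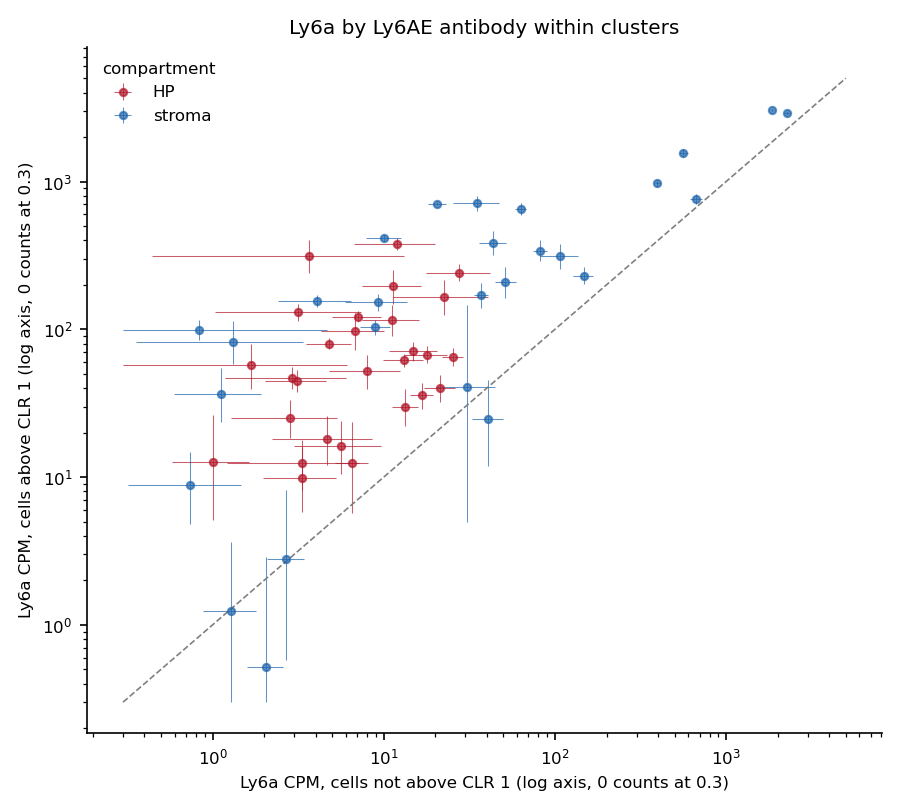
*Ly6a* CPM in cells above (vertical) and not above (horizontal) a Ly6AE CLR of 1 within 55 clusters, both on log axes with 0 counts at 0.3, HP in red and stroma in blue. Bars are exact Poisson 95% intervals and the dashed line marks equal levels. Of the clusters, 52 lie above the line.

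From E18.5 on, *Ly6c1* was higher in stroma and *Ly6c2* in HPs. At E16.5 *Ly6c1* was at 2.50 (2.22 to 2.80) CPM in stroma, above the first HP library (0.215, 0.0443 to 0.627) and not beyond the interval of the second (2.31, 2.01 to 2.63), where TCell1 held 8.43 CPM (91 counts). *Ly6c1*, the endothelial Ly6C gene, was at 95.4 CPM in E16.5 endothelium (76.0 to 118). It was at 327 (292 to 366) and 443 CPM (417 to 470) in that of E18.5 and P0, and at 2064 CPM in adult endothelium, with 3106 in AECs and 712 in SECs. Adult endothelium was at 4.66 (4.37 to 4.97) times the P0 level. In F clusters it was at 5.51, 16.4, 32.5 and 675 CPM from E16.5 to adult, and the adult level was 20.7 (19.8 to 21.7) times that at P0, or 9.51 times without F8. Adult F8 led with 1463 CPM, followed by F13 (873), F12 (608) and F10 (565). The next highest cluster outside endothelium and F was adult P4 (142). HPs held little of it at any stage, 15.8 CPM (3 counts) or less outside the adult cluster coded Stroma (48.8 CPM, 2 counts).

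*Ly6c2* was highest in myeloid clusters at each stage and was also found in TCell5 before and at birth. At E16.5, 951 of 1018 counts (93.4%) of the second library came from Neu1, a neutrophil cluster of 72 cells at 468 (438 to 498) CPM. At E18.5, Neu2 was at 319 (267 to 379) and MyP2 at 166 (158 to 174) CPM. At P0, MyP3, with neutrophil markers first, held 597 (581 to 614), Neu2 488 (356 to 653) and MyP2 156 (150 to 162) CPM. Adult Mono4 and MyP5 held 1306 (1276 to 1336) and 1224 (1200 to 1248) CPM, followed by Mono5 (874) and Neu3 (666). Among lymphoid clusters, TCell5, with NK markers first, held 60.8 (47.1 to 77.2) CPM at E18.5 and 99.5 (78.2 to 125) at P0, the latter above every P0 Mono/DC cluster by CPM. By share of cells that order was not kept. A *Ly6c2* UMI was held by 13.2% of the 68 P0 TCell5 cells and 31.9% of P0 DC3 cells. After thinning it was 7.35% (2.43 to 16.3) and 9.57% (4.47 to 17.4). Adult Bcell3 held 120 (97.6 to 147) CPM, at a median of 1903 UMIs per cell, and other shallow clusters of this library at 484 CPM held 66.7 (Mast4i), 89.9 (Pre/Pro-B2), 162 (MyP4) and 293 CPM (Stroma), so these levels were not read as expression. By class, Mono/DC clusters went from 39.0 CPM at E18.5 and 29.5 at P0 to 1003 in the adult, 34.0 (29.4 to 39.6) times the P0 level, although Mono4 and Mono5 had neutrophil markers first and none of the P0 clusters of the class did. MyP clusters were at 83.8, 302 and 1152 CPM. The mean of per-cell CPM put the Mono/DC ratio at 20.9. Adult HPs held *Ly6c2* in every cluster, with 11.9 (10.0 to 13.9) CPM in EryP2 as the lowest, and erythroid and megakaryocyte clusters as a class were at 15.9 CPM in the adult and at 0 at E18.5. After thinning, 0.634% of EryP2 cells kept a *Ly6c2* UMI, against 66.1% of MyP5 and 65.4% of Mono4 cells. Levels near that of EryP2 in adult clusters were therefore not read as expression. A second antibody, Ly6C, was counted in the second E16.5 HP library only. Its highest mean CLR was in Neu1 (1.37), and cells above a CLR of 1 held 138 CPM of *Ly6c2*, against 1.75 CPM in the rest, while *Ly6c1* was at 2.40 and 2.30 CPM.

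**Figure D5:**
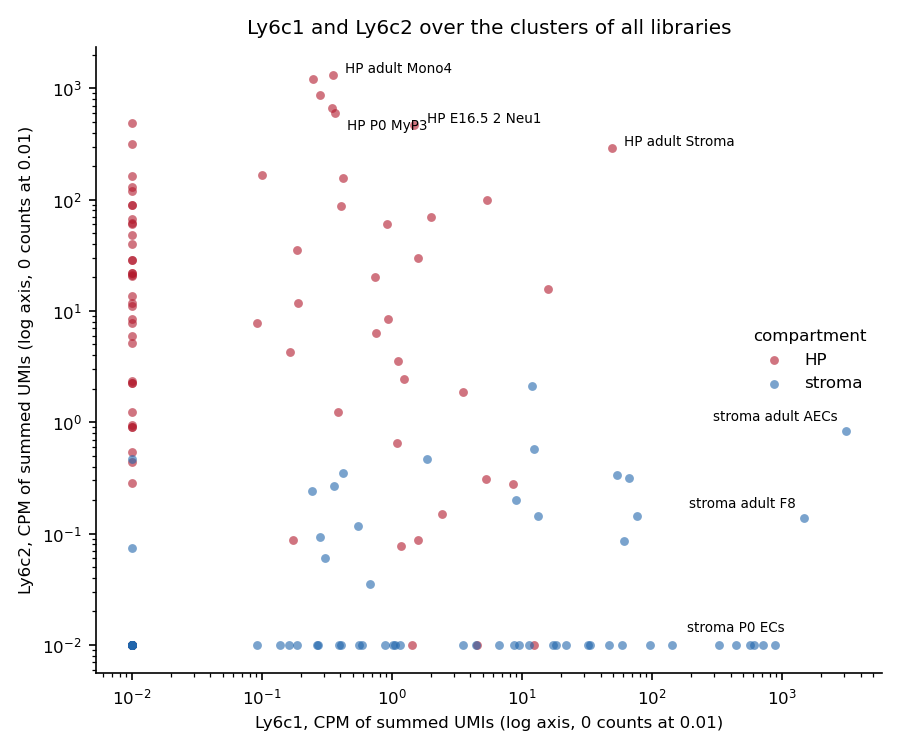
*Ly6c1* CPM (horizontal) and *Ly6c2* CPM (vertical), both on log axes with 0 counts at 0.01, over 147 library-clusters of HPs (red) and stroma (blue). HP clusters run up the left side to Mono4 (1306 CPM of *Ly6c2*) and stromal clusters along the bottom to AECs (3106 CPM of *Ly6c1*). The adult HP cluster coded Stroma lies apart from both, with 12 *Ly6c2* counts and 2 *Ly6c1* counts, the latter under the floor of 3 counts.

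*Ly6e* was the member found in all clusters, at 60.2 CPM or more in HPs and 7.78 CPM or more in stroma, with none at 0. It is a widely expressed gene that is raised by interferon. In HPs its highest clusters were E18.5 Mono1iii (2374, 2221 to 2535) and Mono1i (1746), the second-library E16.5 UD1 (1657), P0 BCell2 (1587) and P0 DC3 (1297). B-lineage clusters were at 1101 and 1254 (E16.5), 959, 1088 and 662 CPM, eosinophil and basophil clusters of at least 20 cells at 838 to 1131 CPM, apart from E18.5 Mast/Bas at 121 (25.0 to 354) CPM, and Neu3 in the adult at 62.4 (56.1 to 69.2) CPM. In stroma the order was endothelium first at every stage. It held 188 (E16.5), 769 (E18.5), 662 (P0) and 1729 CPM (adult), the last 9.17 (7.86 to 10.8) times the first, and AECs (2032) and SECs (1335) were nearer to each other than for *Ly6a*. F clusters were at 65.8, 69.4, 82.7 and 163 CPM, so that the adult F class was at 1.97 (1.90 to 2.04) times P0 for *Ly6e*, against 8.86 (8.63 to 9.09) for *Ly6a* and 20.7 for *Ly6c1* in the same cells. Among adult F clusters *Ly6a* and *Ly6c1* were led by F8, and *Ly6e* by F11 (292) with F8 next (276). *Ly6e* was lower in F10 (52.3 CPM) than in any other adult F cluster. For *Ly6a*, F10 (478 CPM) was above F9 (43.5) and F11 (64.2), and for *Ly6c1* likewise (565 CPM, against 66.7 and 33.5).

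*Ly6d*, a gene of B-lineage commitment, was highest in adult Bcell3 at 2213 (2112 to 2318) CPM. Bcell4 (317, 275 to 365) and Pre/Pro-B1 (183, 170 to 197) followed, and Bcell1 held 28.2 and 71.9 CPM in the E16.5 libraries, 124 CPM (112 to 136) in E18.5 and 109 CPM (101 to 119) in P0 HPs. The adult B class was at 4.25 times the P0 level, and at 7.67 by the mean of per-cell CPM, but Bcell3 carried 1783 of its 2792 counts and without it the rest was at 191 CPM, 1.77 times P0. The class holds different clusters at both stages, Bcell1 and BCell2 at P0 and Bcell3, Bcell4, Pre/Pro-B1 and Pre/Pro-B2 in the adult. Thinned, 72.9% (67.6 to 77.8) of Bcell3 cells kept a *Ly6d* UMI, against 1.06% of EryP2. Outside the B lineage, *Ly6d* was found in the E16.5 T clusters TCell1 to TCell4 (88.8 to 145 CPM), in P0 LymP (115), which are lymphoid progenitors by their code, in P0 TCell5 (95.5), and in adult Mono5 (136) and HSPC5 (94.1). These levels were spread over unlike shares of cells. A *Ly6d* UMI was held by 53.3% to 57.8% of cells of TCell1 to TCell4 (second library), 15.7% of LymP, 18.0% of Mono5 and 8.90% of HSPC5 cells. In P0 TCell5 it was 4.41% of 68 cells, so that level rested on few cells. In the second E16.5 HP library TCell1, TCell2, TCell3 and TCell4 held 30.4%, 19.5%, 22.8% and 14.1% of all *Ly6d* counts. They made up 11.3%, 10.2%, 10.1% and 6.23% of its cells. *Ly6k* had its 4 highest clusters among T cells of the same library, TCell2 (18.4 CPM), TCell3 (10.7), TCell1 (9.36) and TCell6 (8.31), and no cluster of any other library exceeded 5.14 CPM. TCell2 held 36.4% of that library's 571 *Ly6k* counts.

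Because E16.5 HPs were in 2 libraries, the cluster sums of HSPCs were tested between stages with edgeR's quasi-likelihood test. With 1 residual degree of freedom, libraries of the later stages, which stand alone, were assumed to vary like the E16.5 pair. In HSPC sums the prior degrees of freedom were infinite, so the spread used was that of all genes together. A gene's own difference between the E16.5 libraries did not set its SE or p. In mast sums the prior degrees of freedom were 15.1. Of the 6 members, 4 passed the filter on low counts (*Ly6c1* and *Ly6k* did not). *Ly6a* was not called against E16.5 at any stage, with log2 fold changes of 0.77 ± 0.41 (SE, E18.5), 0.79 ± 0.41 (P0) and 0.44 ± 0.42 (adult) and edgeR adjusted p of 0.481, 0.436 and 0.626. Its E16.5 libraries (13.2 and 30.9 CPM) were both below E18.5 (41.0) and P0 (39.7), and the adult value (27.7) lay between them. *Ly6e* was at 414 and 743 CPM at E16.5 and at 340, 354 and 412 CPM later, and was not called either (edgeR adjusted p of 0.650, 0.798 and 0.830).

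*Ly6d* and *Ly6c2* were the members called in HSPC sums, *Ly6d* on few cells and *Ly6c2* against E16.5 libraries that did not agree. *Ly6d* was at 65.9 and 33.4 CPM at E16.5, and at 20.1 (E18.5), 1.88 (P0) and 94.1 CPM (adult) later. These levels rested on few cells. All 55 counts of the first E16.5 library were in 1 of 33 cells, and a *Ly6d* UMI was held by 27 HSPC cells of the second library, and later by 25 cells (E18.5), 11 of the 1505 P0 HSPCs and 56 cells (adult). Against E16.5 it fell by 4.56 ± 0.51 on the log2 scale at P0 (edgeR adjusted p = 9.33e-17) and rose by 1.25 ± 0.39 in the adult (adjusted p = 0.0214), while E18.5 was not called (-1.22 ± 0.42, adjusted p = 0.0832). Without the 1 cell of each library with most *Ly6d* UMIs, the E16.5 libraries were at 0 and 19.5 CPM and P0 at 0.990, so that the P0 value was below the second library only and the agreement of both E16.5 libraries is not shown. The fitted change was then -3.61 ± 0.55 at P0 (edgeR adjusted p = 6.83e-09), 2.90 ± 0.43 in the adult (adjusted p = 3.24e-09), and 0.39 ± 0.45 at E18.5 (adjusted p = 0.906), where the sign turned. E16.5 HSPC1 held more DC and mast markers than HSPC markers, unlike the later HSPC clusters, and what that brings to the *Ly6d* contrast was not tested. HSPC1 of the second E16.5 library also had T markers as its second list, as had Mast1 and Mast2i, and Mono/Mast had them first. In the first library these clusters did not. TCell1 to TCell4 held 30.4%, 19.5%, 22.8% and 14.1% of the *Ly6d* counts of the second library. What T transcripts bring to the contrast was not tested either. At P0 a separate cluster, LymP, had HSPC markers first and held 115 CPM of *Ly6d* and 46.6% of the *Ly6d* counts of the library, and it is not part of the HSPC sum. *Ly6c2* had 0 counts in the first and 27 (8.43 CPM) in the second E16.5 library, and was at 0.898 (E18.5), 20.7 (P0) and 35.6 CPM (adult) later. edgeR called it at all 3 stages, at -2.70 ± 0.67 (adjusted p = 0.00304), 1.88 ± 0.50 (adjusted p = 0.00497) and 2.83 ± 0.50 (adjusted p = 1.09e-06). The E18.5 value lies between both E16.5 libraries, and without the second E16.5 library its sign turned (2.61). Of the P0 cells, HSPC4 held 89.2 CPM and HSPC2 1.25 CPM, and the adult value is close to that of MegP2 (29.0 CPM). Of the 4 members tested, 1 (E18.5), 2 (P0) and 2 (adult) were called, beside 3.94%, 5.20% and 7.93% of all 12163 genes tested. DESeq2 called 0, 1 (*Ly6d*) and 0 of them.

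Mast clusters, a lineage outside HSPCs present at each stage, gave another set of calls. *Ly6e* was at 76.0 and 85.9 CPM at E16.5 and at 572 (E18.5), 546 (P0) and 255 CPM (adult) later, so that every later sum was above both E16.5 sums. Of the 67 adult counts, 51 were in Mast4ii (451 CPM, 336 to 593), which had monocyte markers first. Adult Mast4i held 107 (61.0 to 173) CPM, an interval that includes both E16.5 values. The sums hold different clusters, Mast1, Mast2i and Mast2ii at E16.5, Mast3 at E18.5, Mast3 and Mast4 at P0, and Mast4i and Mast4ii in the adult. P0 Mast3 had HSPC markers as its second list, at 1016 CPM beside 874 CPM in P0 HSPC3, and held 555 CPM of *Ly6e*, against 345 to 386 CPM in the P0 HSPC clusters. What the change of clusters brings was not tested. *Ly6e* rose by 2.71 ± 0.35 (log2, edgeR adjusted p = 0.000143) at E18.5 and by 2.69 ± 0.35 (adjusted p = 8.81e-05) at P0, where it was 2.59 ± 0.37 (adjusted p = 1.74e-07) without cells that share a barcode with a deeper cell. In the adult it was at 1.54 ± 0.39 (adjusted p = 0.0534), and without such cells, which leaves 58 of 321 adult mast cells, at 2.14 ± 0.48 (adjusted p = 0.00218). Of the 43 *Ly6a* counts of the first E16.5 mast sum, 28 were in 1 of 259 cells. Without the cell of each library with most *Ly6a* UMIs, the sums were at 2.05 and 3.98 (E16.5), 5.49 (E18.5) and 18.5 CPM (P0). With all cells, *Ly6a* was at 5.84 and 4.22 CPM at E16.5, at 8.09 (E18.5) and 22.6 CPM (P0). In the adult it was at 0 of 263064 UMIs, where 3 counts would be 11.4 CPM. It was called at P0 only (2.15 ± 0.34, edgeR adjusted p = 0.000536) and not by DESeq2. P0 Mast3 alone held 18.6 (14.6 to 23.4) CPM, and P0 Mast4, which also held fibroblast markers, 105 (64.4 to 163). Without the cells with shared barcodes the P0 value was 2.03 ± 0.34 (adjusted p = 4.83e-06). *Ly6c2* rested on 0 and 2 counts at E16.5, and on 4 (E18.5), 36 (P0) and 17 counts (adult) later. Of the P0 counts, 20 were in 1 of 534 cells, and without that cell P0 was at 3.92 in place of 8.76 CPM. Levels at E16.5 (0 and 0.0612 CPM) and E18.5 (0.952 CPM) were low. The gene thus passed the filter on low counts through its P0 and adult sums (64.6 CPM), where it was high. The calls of *Ly6c2* in mast sums are therefore not used as support. edgeR called it at each stage (adjusted p of 0.0450, 1.69e-05 and 2.01e-06), and without shared barcodes also (adjusted p of 0.0317, 1.67e-09 and 1.64e-11), but its fitted fold changes depend on the prior count and are not given as sizes. Without the cell of each library with most *Ly6c2* UMIs, E18.5 was no longer called (adjusted p = 0.178). The 17 adult counts lay in 15 of 321 cells of a library at 484 CPM, 1 cell each of Mast4i and Mast4ii kept a UMI after thinning, and the cluster coded Stroma held 293 CPM, so the adult call was not read as expression in mast cells. *Ly6c2* is among the members counted as called at each stage, and no other member was called in the adult. In all, 2 (E18.5), 3 (P0) and 1 (adult) of 4 tested members were called, beside 7.16%, 10.8% and 2.11% of 11393 genes.

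Because *Ly6e* and *Ly6a* are known interferon targets, 20 interferon-stimulated genes were followed in the same fits. In mast sums 12 (E18.5), 13 (P0) and 2 (adult) of 19 tested genes were higher than at E16.5 and none lower, with median log2 fold changes of 2.43, 3.05 and 1.23, beside medians of all genes of 0.11, 0.08 and -0.12. In HSPC sums 6, 3 and 2 of 20 were higher and none lower, with medians of 0.76, 0.56 and 0.17, beside 0.01, 0.01 and -0.04. Over all genes 7.16%, 10.8% and 2.11% were called in mast and 3.94%, 5.20% and 7.93% in HSPC sums, and 2 of 20 in adult HSPC sums is near that share. The list moved with *Ly6e* in mast sums at E18.5 and P0. In HSPC sums it did not, as its medians there were 0.76 and 0.56 and *Ly6e*, which was not called, was at -0.77 ± 0.49 (E18.5) and -0.65 ± 0.49 (P0). What links the list and *Ly6e* was not tested. All 20 were measured, and 12 of them, such as *Isg15* (409 CPM) and *Irf7* (247), were highest in E18.5 Mono1i, the HP cluster with the second highest *Ly6e*.

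Of 29 listed relatives of the Ly6/uPAR family, 21 were measured and 9 exceeded 50 CPM in some cluster. *Gpihbp1*, which carries lipoprotein lipase into capillaries, reached 1193 CPM in E18.5 endothelium, and *Slurp1*, a secreted family member, 980 CPM in adult F10. *Plaur*, the urokinase receptor, and *Ly6g*, the granulocyte antigen Ly6G, were highest in P0 Neu2 (314 and 108 CPM). *Ly6i* reached 231 CPM in E18.5 Mono1iii and *Ly6h* 245 CPM in E16.5 F1. *Lynx1* was at 112 CPM in adult P5, a cluster of 21 cells, *Cd59a* at 103 CPM in E18.5 Schwann cells, and *Lypd6* at 69.1 CPM in E16.5 Schwann cells. In HSPC sums none of the 4 relatives tested was called at any stage, and in mast sums 1 (E18.5), 2 (P0) and 0 (adult) of 5 were higher, beside 7.16%, 10.8% and 2.11% of all genes called in either direction.

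Genes with the most similar pattern were ranked by Spearman's rho of CPM over 81 HP and 66 stromal clusters, as a description without a test. In stroma, the gene nearest to *Ly6a* among 7879 was *Ly6c1* (0.862), and that nearest to *Ly6c1* was *Ly6a*. *Zc3hav1* (0.823), *Thbd* (0.792), *Mvp* (0.781) and *Ifi35* (0.774) followed for *Ly6a*, and *Thbd* (0.831), *Ppp2r5a* (0.820), *Hba-a1* (0.806) and *Slc39a1* (0.803) for *Ly6c1*. *Thbd* encodes thrombomodulin, an endothelial surface protein, and *Hba-a1* a globin chain of red cells. Near *Ly6e* in stroma were *Jup* (0.842), *Man1c1* (0.822), *Hpcal1* (0.816), *Selenop* (0.794) and *Ppp1r2* (0.784). *Ly6a* and *Ly6e* gave 0.754 in stroma and 0.382 in HPs. *Ly6c1* did not reach 50 CPM in HPs and was not ranked there, and *Ly6a* and *Ly6c2* gave -0.109. The genes nearest to *Ly6a* among 7728 were *Usf1* (0.685), *1700025G04Rik* (0.672), *Sesn3* (0.672), *BC147527* (0.633) and *Epsti1* (0.630). *Ly6c2* was closest to the granule and calprotectin genes *S100a8* (0.871), *S100a9* (0.829), *Lcn2* (0.796), *Ngp* (0.766) and *Wfdc21* (0.761). *Ly6d* was closest to *Myl10* (0.785), *Spib* (0.783), *Gfra1* (0.776), *Aff3* (0.764) and *Tmem108* (0.752), and *Ly6e* to *Evl* (0.733), *Aim2* (0.730), *Pim1* (0.718), *Apobec3* (0.699) and *Dpp4* (0.689). Clusters of a library share depth and free RNA, and clusters of one cell type at several stages are not independent points.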

How the data were processed

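Cells were sorted, captured with 10X 3′ v3.1 chemistry and TotalSeq-A antibodies, and the authors counted reads with Cell Ranger 3.1.0 on mm10 and used Seurat 3.1.5 in R 4.0 (per the labels). The authors deposited raw UMI counts per gene and cell and raw antibody counts for 29 antibodies, after their filters on UMIs and mitochondrial share, with each cell's library and cluster code. No doublet caller was run here. The barcodes carry no sample name, so cells were assigned through the library column. Counts were summed by library, class or cluster and divided by summed UMIs (CPM), with exact Poisson and, for shares, Clopper-Pearson 95% intervals, and thinning drew 1000 UMIs per cell. HSPC and mast sums of 5 HP libraries were tested with edgeR 4.0.16 in R 4.3.3 (TMM, default filter, quasi-likelihood F test, Benjamini-Hochberg over all genes, threshold 0.05), with DESeq2 1.42.0 as an alternative. The test was tested on simulated data for P0 against E16.5 and called 68.8% of 4-fold and 5.05% of 2-fold changes in HSPC sums (12163 genes) and 74.2% and 10.2% in mast sums (11393 genes). The study states that its single-cell experiments were not repeated, so p-values measure the spread of these libraries, mostly pooled over genes, which may be technical. Other steps used Python 3.11.15, numpy 2.4.6, scipy 1.17.1, pandas 2.3.3 and Biopython 1.88, and figures matplotlib 3.10.9.

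Named were all 6 members in every library, their 10 highest clusters of at least 20 cells, listed relatives above 50 CPM in such a cluster, the 5 genes nearest to each member by Spearman's rho among genes with at least 50 CPM in such a cluster, and members passing the edgeR threshold. Individual clusters, interferon genes and marker sums beyond this rule were named after their values were seen. The members and gene lists were chosen with earlier results of these data known. Alternatives changed the set of cells, the denominator, the summary over cells, the antibody normalization and level, the measure of likeness, and the tool, normalization and filter of the test, or left out either E16.5 HP library.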

Additional observations from a re-analysis of the deposited data

Results flagged for a closer look

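For *Ly6e* at each later stage and *Ly6d* at P0, the later library lay below both E16.5 libraries in HSPC clusters and above both in mast clusters. The difference between the classes was not tested. *Ly6e* was at 340 CPM in HSPC and 572 CPM in mast clusters at E18.5, at 354 and 546 CPM at P0, and at 412 and 255 CPM in the adult. In HSPC clusters *Ly6e* was not called at any stage (edgeR adjusted p of 0.650, 0.798 and 0.830), nor in adult mast clusters (0.0534). The E16.5 libraries held 414 and 743 CPM in HSPC clusters and 76.0 and 85.9 CPM in mast clusters. The adult HSPC value (412) is within the counting interval of the lower E16.5 library, and 58 of 321 adult mast cells remain without those that share a barcode with a deeper cell. Adult Mast4i held 107 (61.0 to 173) CPM of *Ly6e*, which is not beyond the E16.5 mast values, and adult Mast4ii 451 CPM. *Ly6d* at P0 was at 1.88 CPM in HSPC and 9.00 CPM in mast clusters, against 65.9 and 33.4 CPM, and 0 and 5.48 CPM, at E16.5, and was not called in mast clusters (edgeR adjusted p = 0.353). The 65.9 CPM came from 1 of 33 cells, and 32 of the 37 P0 mast counts from 1 of 534 cells. Without the cell of each library with most *Ly6d* UMIs, P0 was at 0.990 CPM against 0 and 19.5 in HSPC clusters and at 1.23 against 0 and 4.56 in mast clusters, so neither side of this *Ly6d* pattern held. In each contrast the E16.5 HSPC cluster held more mast and DC markers than HSPC markers.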

How the results depend on the processing

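Of 86 recomputed main results, 65 kept their direction and their side of the threshold or stayed within the spread, 11 moved, 5 gained and 5 lost calls, and of 312 recomputed single values 235 did, 51 moved, 7 reversed, 6 gained and 13 lost their call or place. The cause was not tested for those that did not. With DESeq2, 0 (E18.5), 1 (P0) and 0 (adult) members were called in HSPC sums and 1 in mast sums at E18.5, and over all genes it called 231, 303 and 395 in HSPC sums against 479, 632 and 965, and 103, 125 and 125 in mast sums against 816, 1233 and 240. In adult mast sums 2 members in place of 1 were called with RLE size factors, with no filter, with DESeq2, with cells of at least 1000 UMIs and without shared barcodes, and mast calls over all genes were 1262 (E18.5) and 394 (adult) with no filter and 1245 (E18.5) with cells of at least 1000 UMIs. Without UMIs of mitochondrial, ribosomal protein and globin genes and Gm42418, the ratio for *Ly6a* in F clusters was 52.1, for *Ly6c1* 16.9 and for *Ly6d* in B clusters 4.85. By the mean of per-cell CPM the *Ly6c2* ratio in Mono/DC clusters was 20.9 and that of *Ly6d* 7.67. At a CLR above 0.5 the median antibody ratio was 13.8. Leaving out either E16.5 HP library, values with no test ranged from -3.03 to 2.61 for *Ly6c2* in HSPC sums at E18.5, from -0.63 to 0.25 for *Ly6e* in adult HSPC sums and from -0.96 to 2.75 for *Ly6d* in mast sums at E18.5, each positive without the second library. The median rho was 0.64 without either E16.5 HP library, and with the share of all antibody counts rho was -0.25 in the first E16.5 HP library and -0.10 in E16.5 stroma. By Pearson's r, 2 to 4 of the first 5 similar genes of a member were kept. Without the cell of each library with most UMIs of a member, 1 member was called in mast sums at E18.5, and *Ly6d* turned to 0.39 in HSPC sums at E18.5 and -1.14 in mast sums at P0. Without the adult cluster of a class with the highest level, the ratios were 28.3 and 20.4 for *Ly6a* in endothelium and F clusters, 9.51 for *Ly6c1*, 26.7 for *Ly6c2* and 1.77 for *Ly6d*. The alternatives on shared barcodes, on this cell and on this cluster were chosen after seeing the data. No paired analysis was possible because E16.5 alone had a second HP library. Depth limits *Ly6k*, *Ly6c1* in HPs and adult mast sums.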
